A study of Mus musculus with 6 samples.

Results

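The 36 genes described here make cholesterol and fatty acids or control that synthesis. They were chosen by name, from a list of sterol and fatty acid synthesis enzymes and regulators of the SREBP transcription factors, and all 36 were found among the 55487 genes of the count table. The sterol branch holds 23 of them and the fatty acid branch 13. They were measured by RNA sequencing of bulk RNA from cultured mouse macrophages. TpMos and mature Ly6Chi monocytes, as the labels name them, were sorted and kept for 7 days in medium with serum and the growth factor CSF-1, and the macrophages that resulted were scraped off for RNA. The TpMo-derived and the Ly6Chi-derived group hold 3 libraries each. The labels name no strain, age, sex, genotype or number of animals, nor the CSF-1 concentration of a sample, and nothing says that replicates came from separate cultures. The p-values thus measure the spread between these libraries, which may be technical. In bulk RNA, fewer cells that express a gene and less of its RNA per cell cannot be told apart.

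The libraries held from 23765773 to 33042094 counts on genes. Levels are given in CPM, counts scaled to a common library total, and a floor of 3 counts corresponded to 0.0921 to 0.130 CPM. All 7 macrophage markers examined were present, with summed levels of 34713 to 37270 CPM in TpMo-derived and 28599 to 31597 CPM in Ly6Chi-derived libraries. Of other cell types, all 6 adipocyte, all 7 stromal and all 5 mast cell and basophil markers were at 0 in every library, Adipoq and Col1a1 among them. Markers of neutrophils, dendritic cells, B cells, T and NK cells, erythroid cells and megakaryocytes summed to at most 4.30 CPM per type, with Mpo, Flt3, Cd3e and Gp9 at 0. Of 5 osteoclast markers 4 were detected, at 18.5 to 20.7 CPM in sum in TpMo-derived and 21.3 to 32.4 CPM in Ly6Chi-derived libraries, with Calcr at 0. Their part in the results was not tested.

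Both pathways start from cytosolic acetyl-CoA. In the sterol branch it is built into mevalonate, then into isoprenoid units and squalene, and the closed sterol ring is trimmed to cholesterol. In the fatty acid branch it is carboxylated, assembled into palmitate, and then elongated, desaturated and joined to coenzyme A. The transcription factor SREBP2, the product of Srebf2, mainly drives sterol genes, and SREBP1, the product of Srebf1, mainly fatty acid genes. When membranes are rich in sterol, the Insig proteins hold SREBP and its escort Scap in the endoplasmic reticulum, and the genes stay low. The liver X receptor (LXR), which is switched on by oxidised sterols and by sterol precursors, drives sterol export and also Srebf1 in macrophages.

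In each branch 1 gene passed the test between the groups. Of the 35 members with enough counts to be tested, Mvd fell and Scd2 rose in TpMo-derived macrophages (edgeR's quasi-likelihood fit, p adjusted by Benjamini-Hochberg under 0.05), and 33 did not pass. The share called was 5.7% of the members, beside 12.3% of all 13140 genes tested. In the sterol branch 1 of 23 was lower and 0 were higher, and in the fatty acid branch 1 of 12 was higher and 0 were lower. Among all genes 6.54% were higher and 5.79% lower. At an unadjusted p under 0.05, the sterol branch held 5 lower and 0 higher members (Mvd, Acat2, Insig2, Stard4 and Sc5d), and the fatty acid branch 3 higher and 0 lower (Scd2, Acsl3 and Acly). Of all genes 24.4% were under that unadjusted p, 12.3% higher and 12.1% lower.

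For most members the data also bounded the difference. The 95% interval of the difference lay within a 2-fold change either way for 18 of 23 sterol and 9 of 12 fatty acid members, beside 55.5% of all genes. It reached beyond 2-fold for Mvd, Acat2, Mvk, Fdps and Tm7sf2 in the sterol branch and for Scd2, Acsl3 and Fads2 in the fatty acid branch. In the sterol branch 19 of 23 log2 fold changes were below 0 with a median of -0.16, and in the fatty acid branch 4 of 12 were below 0 with a median of 0.13. Of all genes 49.5% were below 0, and the median was 0.01. Without TpMo-derived replicate 2, both medians were below 0, at -0.26 with 21 of 23 below 0 and at -0.01 with 8 of 12 below 0. The difference between the branches was not tested.

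**Figure D1:**
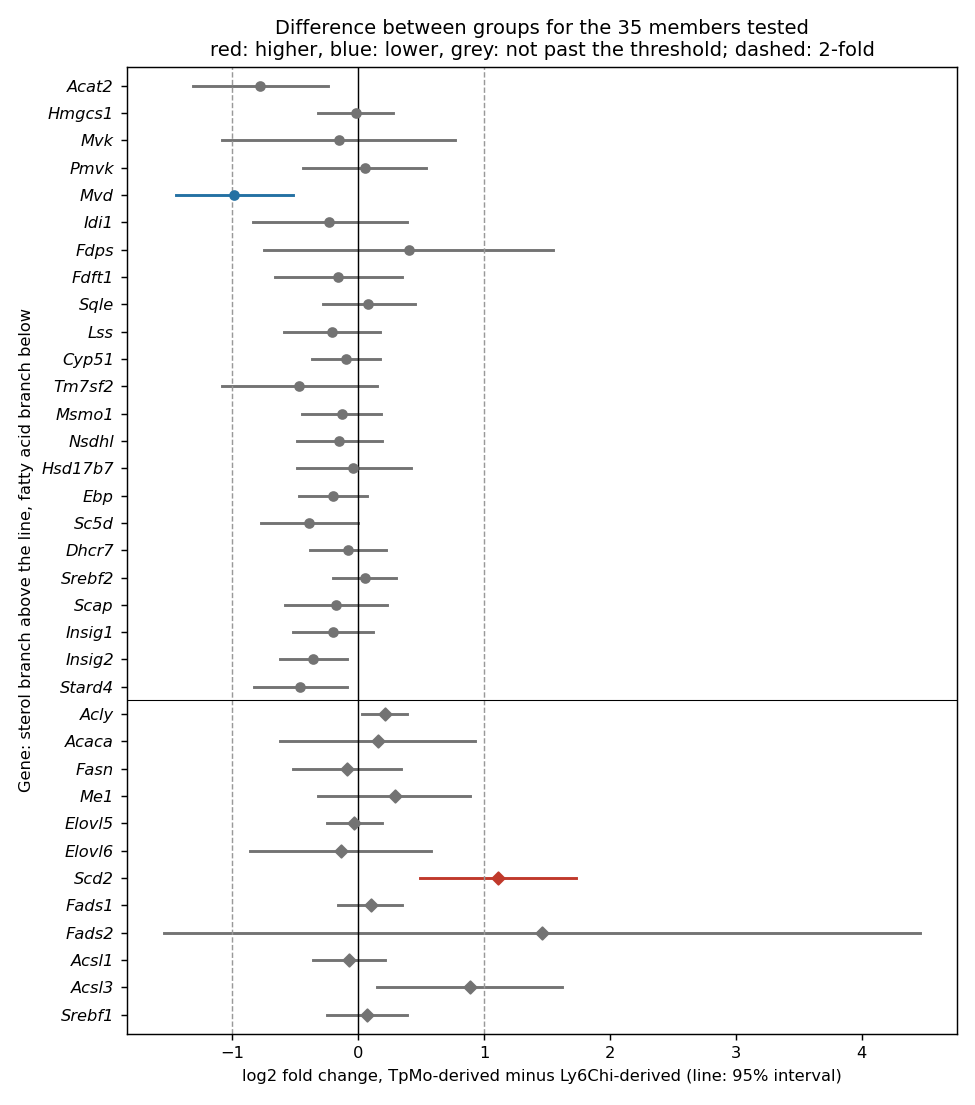
The log2 fold change (x axis, TpMo-derived minus Ly6Chi-derived) of the 35 members tested, in pathway order (y axis), with its 95% interval as a line, circles for the sterol and diamonds for the fatty acid branch. Mvd (-0.99, blue) and Scd2 (1.11, red) are the members past the threshold, and the interval of Fads2 is the widest, from -1.54 to 4.46.

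Among the mevalonate steps, Mvd was the member that passed the test. Its product, mevalonate diphosphate decarboxylase, makes isopentenyl diphosphate, the isoprenoid unit (ENSMUSG00000006517.5, GRCm38 chromosome 8, 122433601 to 122443422, minus strand). It stood at 13.0, 19.3 and 12.9 CPM in TpMo-derived replicates 1, 2 and 3 and at 31.0, 26.4 and 32.4 CPM in the Ly6Chi-derived ones. Every TpMo-derived library was thus below every Ly6Chi-derived library. Mvd fell to 15.1 ± 3.65 CPM from 29.9 ± 3.14 CPM (SD, n = 3 each), a log2 fold change of -0.99 ± 0.21 (SE), or 0.504-fold (95% interval 0.366 to 0.695, edgeR adjusted p = 0.0119). The call was lost without TpMo-derived replicate 3 and without Ly6Chi-derived replicate 1 or 3 (adjusted p = 0.0536, 0.0508 and 0.0549, log2 fold changes from -0.97 to -0.89).

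Acat2, which joins acetyl-CoA units in the cytosol ahead of HMG-CoA synthesis, had the next largest difference of the branch. Its levels were 12.7, 25.1 and 18.1 CPM in TpMo-derived and 30.3, 29.6 and 35.6 CPM in Ly6Chi-derived libraries, so the groups did not overlap. The log2 fold change of -0.78 ± 0.24 (SE) did not pass (edgeR adjusted p = 0.0640). It passed without a count filter, when 5 CPM in 3 libraries were required, with DESeq2, with limma-voom and without TpMo-derived replicate 2 (adjusted p from 0.0137 to 0.0279), and over all alternatives run its adjusted p reached from 0.0137 to 0.193. Acat2 shares 38.9% of its 51-base transcript words with its copy Acat3 and with Tcp1, and reads that fell on more than 1 gene or place were not counted. Acat3 itself stood at 0.0868 to 0.799 CPM.

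The steps between them did not pass the test. Hmgcs1, the HMG-CoA synthase and the step right after Acat2, stood at 55.3, 76.6 and 63.1 CPM against 69.1, 62.2 and 66.4 CPM. Its groups overlapped, and its difference was bounded between 0.801-fold and 1.21-fold. The kinases of mevalonate and of phosphomevalonate, Mvk and Pmvk, had log2 fold changes of -0.15 and 0.05. Mvk was at 6.08, 16.8 and 8.77 CPM against 15.5, 6.51 and 13.1 CPM, a spread within each group that left its interval at 0.474-fold to 1.70-fold.

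The promoters of these 3 early genes are shown because 1 fell, 1 came close to the threshold and 1 was flat. Each run below is the 250 bases before the start site in RefSeq's GRCm38.p6 annotation, 5′ to 3′ on the gene's strand, for Mvd (chr8:122443423-122443672, minus strand), Acat2 (chr17:12960726-12960975, minus strand) and Hmgcs1 (chr13:119690101-119690350, plus strand). Capitals mark matches to the CCAAT word bound by NF-Y, the GGGCGG word bound by Sp1 and TCACNCCAC, the core of a classical sterol regulatory element, each on either strand.
Mvd: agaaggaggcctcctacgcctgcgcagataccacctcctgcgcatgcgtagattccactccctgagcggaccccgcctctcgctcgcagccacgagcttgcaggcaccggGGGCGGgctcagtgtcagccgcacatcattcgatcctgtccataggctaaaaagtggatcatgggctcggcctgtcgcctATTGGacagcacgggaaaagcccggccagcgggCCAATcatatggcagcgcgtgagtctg
Acat2: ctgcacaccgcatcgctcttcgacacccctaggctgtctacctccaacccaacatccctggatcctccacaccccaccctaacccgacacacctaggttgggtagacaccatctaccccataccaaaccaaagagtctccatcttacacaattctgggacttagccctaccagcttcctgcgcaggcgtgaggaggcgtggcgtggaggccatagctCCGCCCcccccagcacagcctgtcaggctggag
Hmgcs1: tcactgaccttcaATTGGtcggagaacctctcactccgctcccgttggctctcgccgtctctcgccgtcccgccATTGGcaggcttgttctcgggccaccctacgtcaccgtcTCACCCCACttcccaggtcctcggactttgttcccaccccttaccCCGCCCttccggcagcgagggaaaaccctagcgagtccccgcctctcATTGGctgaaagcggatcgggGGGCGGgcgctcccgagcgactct

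The Hmgcs1 stretch held 1 match to TCACNCCAC, 129 to 137 bases before the start, with 3 matches to CCAAT and 2 to GGGCGG. That of Mvd held 2 matches to CCAAT and 1 to GGGCGG, and that of Acat2 held 1 match to GGGCGG. RefSeq promoter windows of 300 bases (250 before and 50 after a start) matched 29 of the 36 members by symbol. CCAAT was found in 24 of the 29, or 82.8%, beside 41.1% of the 27025 genes with a window, and GGGCGG also in 24, beside 38.2%. Of the 19 sterol members with a window 17 held CCAAT, and of the 10 fatty acid members 7. TCACNCCAC was found in 2 members, Hmgcs1 and Acsl1, or 6.9%, beside 1.44% of genes, and the E-box word CACGTG in 6, or 20.7%, beside 8.09%. A gene with several windows counted once if any of them matched. Counted per window, CCAAT was in 64.1% of the 39 member windows, beside 37.4% of all 32851 windows. GGGCGG was in 71.8% of member windows, beside 35.7%. The genes compared were not limited to those expressed in these cells. These are matches of letters and say nothing of binding in these cells.

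**Figure D2:**
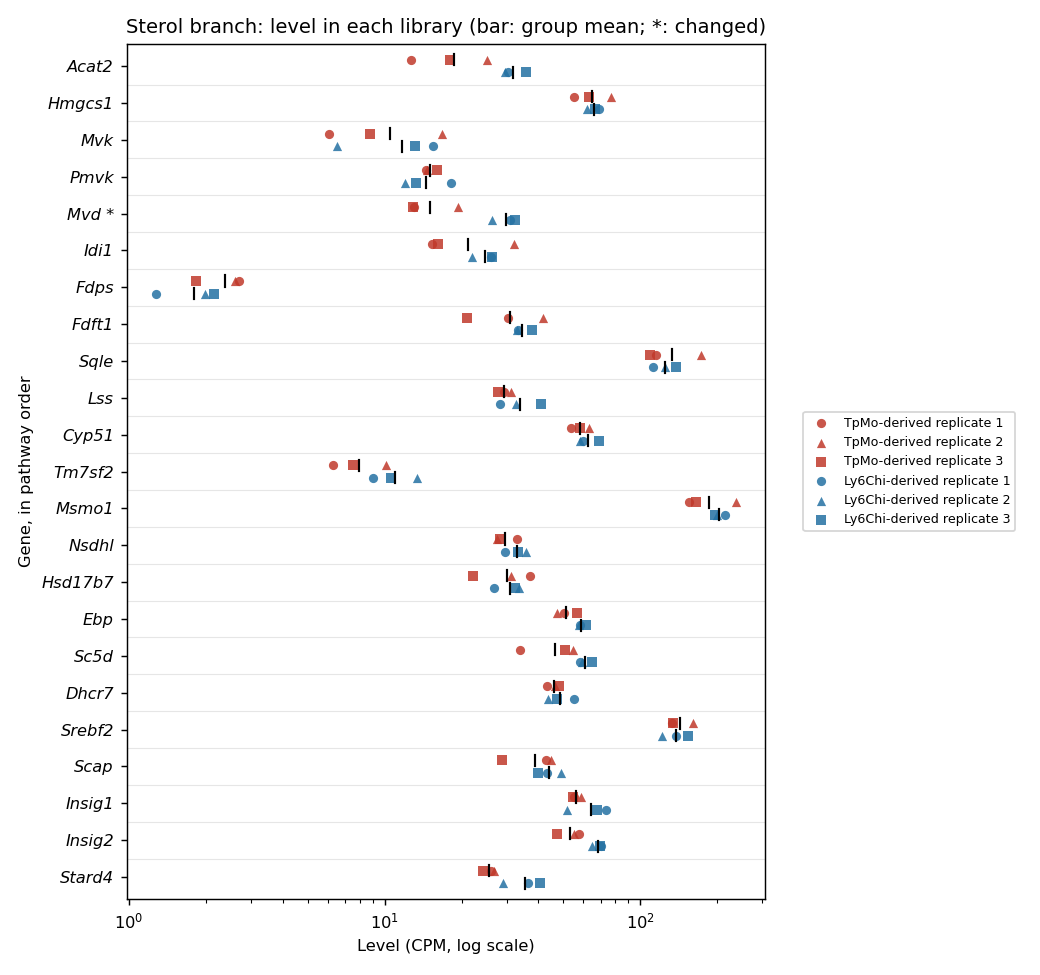
Level of the 23 sterol branch genes (y axis, pathway order) in each library (x axis, CPM on a log scale), red for TpMo-derived and blue for Ly6Chi-derived, with 1 symbol shape per replicate number and a bar at each group mean. The groups are apart for Mvd (12.9 to 19.3 against 26.4 to 32.4 CPM) and Acat2, and mixed for most other genes.

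In the isoprenoid and squalene steps 0 of 4 members passed the test, and all 4 had overlapping groups. Sqle, the squalene epoxidase and a rate-limiting step of the later pathway, stood at 115.2, 173.3 and 109.5 CPM against 111.9, 125.1 and 138.3 CPM. Its interval ran from 0.821-fold to 1.37-fold, and TpMo-derived replicate 2 was the highest of all 6 libraries. Idi1, which interconverts the isoprenoid units, was also highest in that library, at 15.3, 32.0 and 16.2 CPM against 26.1, 21.9 and 26.4 CPM (log2 fold change -0.23 ± 0.28 SE). Fdft1, the squalene synthase, was at 21.0 to 41.7 CPM against 33 to 37.6 CPM.

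Fdps, which makes farnesyl diphosphate, had few counts throughout, with 358 over all 6 libraries. It was counted at 1.82 to 2.70 CPM against 1.27 to 2.15 CPM. Of the exonic bases of all its transcripts together, 26.7% lie on exons of the overlapping gene model Gm43738. Of its transcript words, 26.1% occur in other genes. Within a single transcript these shares may be larger. Its level is thus uncertain and may be understated. The same holds in part for Fdft1, of which 18.8% of exonic bases lie on exons of the abundant protease gene Ctsb, and for Idi1, with 25.2% of words shared. Reads on exons of more than 1 gene, or mapped to more than 1 place, were left out of the counts.

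Of the 9 genes of the ring steps from lanosterol to cholesterol, 0 passed the test. All 9 log2 fold changes lay below 0, between -0.47 and -0.04. The most abundant, the methylsterol oxidase Msmo1, stood at 155.8, 236.9 and 164.8 CPM against 214.7, 200.6 and 195.4 CPM (log2 fold change -0.13 ± 0.14 SE). The demethylase Cyp51 was at 53.7, 63.0 and 58.1 CPM against 59.9, 58.2 and 69.1 CPM, and Dhcr7, the last reductase of one route, at 43.3 to 48.0 CPM against 43.5 to 55.0 CPM. Both had intervals that excluded a change of more than 0.769-fold or 1.16-fold.

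Among these 9, the groups did not overlap for Sc5d and Ebp. Sc5d, the lathosterol desaturase, was at 34.0, 54.4 and 50.9 CPM against 58.0, 59.1 and 64.8 CPM (log2 fold change -0.39 ± 0.17 SE, edgeR adjusted p = 0.203). Ebp, the sterol isomerase, was at 50.2, 47.2 and 56.5 CPM against 58.2, 57.5 and 61.2 CPM (edgeR adjusted p = 0.359). Both were lower in the TpMo-derived libraries but did not pass the test, and the interval of Ebp included no change. Beside these 2 of 9, 15.2% of all genes were lower without overlap, and 30.5% were without overlap in either direction. The remaining ring enzymes had overlapping groups, with log2 fold changes of -0.21 for the lanosterol synthase Lss, -0.15 for Nsdhl, -0.04 for Hsd17b7 and -0.47 for the reductase Tm7sf2. Tm7sf2 was low, at 6.29 to 13.4 CPM, and 12.1% of its exonic bases lie on exons of its neighbour Vps51.

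None of the 5 sterol regulators and carriers passed the test. Srebf2 stood at 133.6, 161.3 and 134.8 CPM against 138.5, 122.2 and 154.5 CPM, with an interval of 0.870-fold to 1.23-fold. Scap was at 28.8 to 44.8 CPM against 39.8 to 48.8 CPM. The retention gene Insig1, itself a target of SREBP, was at 55.1, 58.9 and 54.5 CPM against 73.7, 51.5 and 67.8 CPM (log2 fold change -0.20 ± 0.14 SE). Ly6Chi-derived replicate 2 was below the whole TpMo-derived group, so the groups overlapped.

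Insig2, the second retention gene, was at 57.8, 55.0 and 47.2 CPM against 70.3, 64.6 and 69.9 CPM. All 3 TpMo-derived libraries were lower, but the log2 fold change of -0.36 ± 0.12 (SE) did not pass (edgeR adjusted p = 0.0877, against 0.0301 with DESeq2). Stard4, which carries sterol between membranes, was at 26.1, 26.8 and 24.3 CPM against 36.3, 29.0 and 40.7 CPM, also without overlap (log2 fold change -0.46 ± 0.17 SE, edgeR adjusted p = 0.116). In all, 6 of 23 sterol members had groups without overlap, each of them lower in TpMo-derived libraries, beside 15.2% of all genes lower without overlap and 30.5% without overlap in either direction.

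TpMo-derived replicate 2 stood apart from the other TpMo-derived libraries in the sterol branch, a pattern noticed after the values were seen. It was the highest of its group for 12 of the 18 sterol enzymes, or 66.7%, beside 33.8% of all genes tested. Its median log2 ratio to the mean of the other TpMo-derived libraries was 0.36 over these enzymes and -0.01 over all genes. The ratio was 2.26 for Mvk, 2.03 for Idi1, 1.63 for Acat2 and for Fdft1, 1.54 for Sqle and 1.48 for Msmo1, but 1.02 for Dhcr7 and 0.885 for Ebp. In the fatty acid branch it was the highest for 8 of 12 members, with a ratio of 2.36 for Acaca. In the Ly6Chi-derived group, replicate 3 was the highest for 10 of the 18 enzymes, with a smaller median log2 ratio of 0.14.

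The summed level of the 18 sterol enzymes was 707.8, 950.2 and 731.4 CPM in TpMo-derived and 876.3, 853.1 and 920.1 CPM in Ly6Chi-derived libraries. Replicate 2 of the TpMo-derived group was thus above the entire other group, while replicates 1 and 3 were below it. Without it, 3 sterol members were called lower in place of 1: Mvd with a log2 fold change of -1.20, Acat2 with -1.05 and Msmo1 with -0.35 (edgeR adjusted p = 0.00486, 0.0159 and 0.0332). The branch median moved from -0.16 to -0.26, with 21 of 23 below 0. With 27154105 counts the library lay within the range of depths, and no label sets it apart. The cause of its pattern was not tested.

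**Figure D3:**
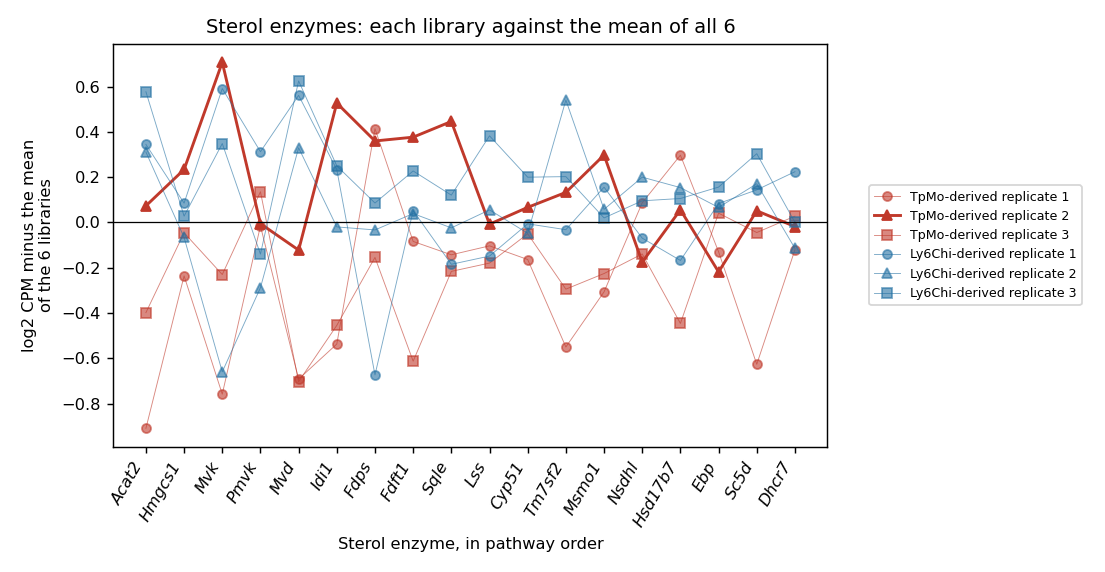
Each library's log2 CPM minus the mean of all 6 libraries (y axis) for the 18 sterol enzymes in pathway order (x axis), red for TpMo-derived and blue for Ly6Chi-derived. TpMo-derived replicate 2, the thick line, is above the other TpMo-derived libraries for 12 of the 18 enzymes.

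In the fatty acid branch, 0 of 4 genes of supply and chain synthesis passed the test. Acly, which makes cytosolic acetyl-CoA from citrate and so feeds both branches, stood at 324.1, 368.6 and 319.7 CPM against 293.8, 271.8 and 312.2 CPM. The TpMo-derived libraries were all higher, by 1.15-fold (95% interval 1.02 to 1.31), without passing (edgeR adjusted p = 0.145). Fasn, the fatty acid synthase, was at 50.1, 59.9 and 63.7 CPM against 43.5, 63.8 and 77.2 CPM, and its groups overlapped fully (interval 0.697-fold to 1.27-fold). Acaca, the acetyl-CoA carboxylase, was at 8.81, 21.7 and 9.55 CPM against 10.2, 11.5 and 14.2 CPM. Its log2 fold change of 0.16 turned to -0.38 without TpMo-derived replicate 2, and 30.3% of its transcript words are shared with other genes, among them the gene model Gm5182. Me1, a malic enzyme that supplies NADPH, was at 8.94 to 13.0 CPM against 6.62 to 9.40 CPM.

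Among the elongases and desaturases, Scd2 was the 1 of 5 tested members that passed the test. Scd2 is a stearoyl-CoA desaturase, which puts the double bond into oleate (ENSMUSG00000025203.6, GRCm38 chromosome 19, 44293674 to 44306864, plus strand). It stood at 25.3, 35.3 and 16.0 CPM in TpMo-derived and at 13.0, 12 and 10.4 CPM in Ly6Chi-derived libraries. All 3 TpMo-derived libraries were higher, and they spread more widely than the others. Scd2 rose to 25.5 ± 9.69 CPM from 11.8 ± 1.34 CPM (SD, n = 3 each), a log2 fold change of 1.11 ± 0.28 (SE), or 2.16-fold (95% interval 1.41 to 3.32, edgeR adjusted p = 0.0265). The call was lost when any 1 library other than TpMo-derived replicate 3 was left out (adjusted p from 0.0719 to 0.107). The smallest log2 fold change, 0.80, came without TpMo-derived replicate 2.

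Scd1, another stearoyl-CoA desaturase on chromosome 19 (44394455 to 44407879, minus strand), had 0 counts in all 6 libraries, under a floor of at most 0.130 CPM each. Only 4.4% of its transcript words occur in other genes. Fads2, the delta-6 desaturase of polyunsaturated fatty acids, was uneven within both groups, with 0, 315 and 37 counts in TpMo-derived and 12, 88 and 38 counts in Ly6Chi-derived libraries. Its log2 fold change of 1.46 (95% interval -1.54 to 4.46) turned to -1.02 without TpMo-derived replicate 2 and to -1.27 with limma-voom, so no direction is given. Fads1, the delta-5 desaturase, was even, at 97.4, 116.8 and 92.9 CPM against 105.3, 87.9 and 94.2 CPM (interval 0.892-fold to 1.28-fold).

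The elongases did not pass the test. Elovl5, which lengthens polyunsaturated chains, stood at 103.9, 114.1 and 120.8 CPM against 113.1, 108.4 and 124.9 CPM, and its interval of 0.841-fold to 1.14-fold was the second narrowest of the members after that of Acly. Elovl6, which lengthens palmitate, was at 7.29 to 16.5 CPM against 10.3 to 16.8 CPM.

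Of the acyl-CoA synthetases, which activate fatty acids, 0 of 2 passed the test. Acsl3, linked to lipid droplet formation, was at 8.26, 7.28 and 8.98 CPM against 5.70, 4.76 and 2.80 CPM. The groups did not overlap, but the log2 fold change of 0.89 ± 0.33 (SE) did not pass (edgeR adjusted p = 0.121). Acsl1 was at 71.6 to 88.1 CPM against 70.2 to 90.4 CPM. In the branch, 3 of 12 members (Acly, Scd2 and Acsl3) had groups without overlap, all higher in TpMo-derived libraries. Of all genes 15.3% were higher without overlap, and 30.5% were without overlap in either direction.

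The regulator Srebf1 stood at 64.7, 85.6 and 83.1 CPM against 81.0, 62.5 and 78.5 CPM. Its groups overlapped, and the interval ran from 0.842-fold to 1.31-fold. The counts do not separate its 2 main isoforms, SREBP1a and SREBP1c. The summed level of the fatty acid branch was 777.6, 922.1 and 820.6 CPM against 778.5, 713.9 and 825.6 CPM, so the sums overlapped as well. Without TpMo-derived replicate 2 the branch median moved from 0.13 to -0.01, with 8 of 12 members below 0 in place of 4.

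**Figure D4:**
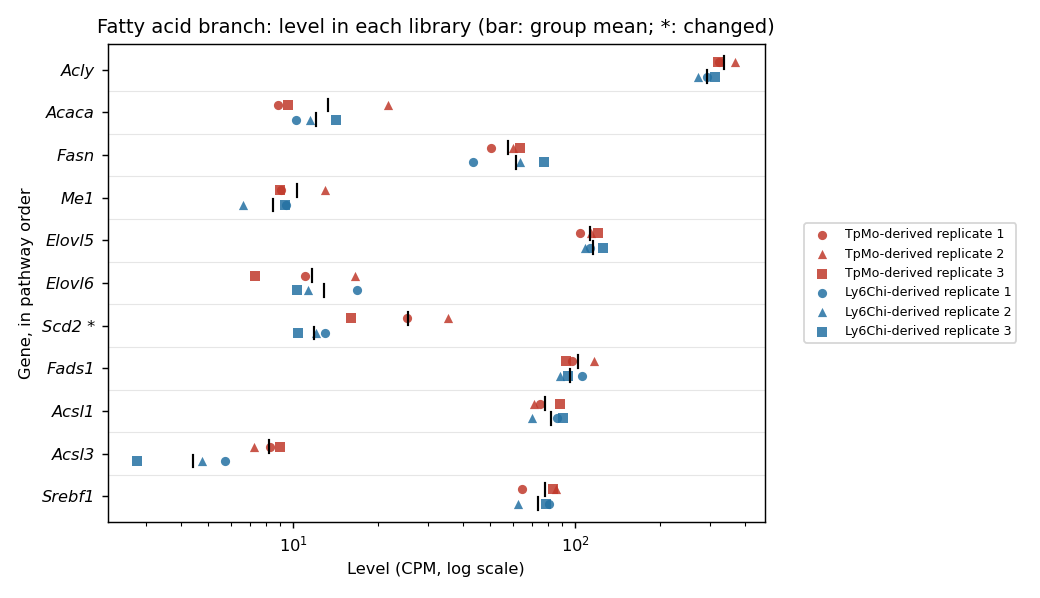
Level of 11 fatty acid branch genes (y axis) in each library (x axis, CPM on a log scale), red for TpMo-derived and blue for Ly6Chi-derived, with a bar at each group mean. Scd1, at 0 counts, and Fads2, at 0 in 1 library, cannot be drawn on this axis. Scd2 (16.0 to 35.3 against 10.4 to 13.0 CPM), Acsl3 and Acly have groups that do not overlap.

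Per length, the members spanned a wide range of levels. Acly was the highest, at 59.7 CPM per kilobase of exon over all 6 libraries, followed by Elovl5 at 32.4 and Msmo1 at 31.7. Sqle stood at 23.2 and Hmgcs1 at 14.2 CPM per kilobase. The 2 regulators stood at 19.6 (Srebf2) and 13.5 (Srebf1) CPM per kilobase. Mvd was at 8.12 in TpMo-derived and 16.1 in Ly6Chi-derived macrophages, and Scd2 at 4.67 and 2.16 CPM per kilobase. Fdps and Acaca were counted at low levels, of 0.496 and 0.741 CPM per kilobase. The levels of both are uncertain and may be understated, because they share sequence with other genes.

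Genes around the 2 branches were counted in the same fit, in which 12.3% of all genes passed, 6.54% higher and 5.79% lower. Of 11 tested genes of other sterol synthesis, uptake and trafficking, 3 rose and 1 fell, with a median log2 fold change of 0.11. Lbr, a lamin receptor that also acts as a sterol reductase, fell to 46.4 ± 8.79 from 68.1 ± 7.01 CPM (SD, n = 3 each, edgeR adjusted p = 0.0455). Mylip, a ligase that degrades lipoprotein receptors and a known LXR target, rose to 35.7 ± 7.37 from 21.6 ± 0.609 CPM. Stard3, a late endosomal sterol carrier, and Acat1, the mitochondrial thiolase, rose too, both with a log2 fold change of 0.59.

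Of 10 genes of SREBP processing and sterol enzyme turnover, 2 rose and 0 fell (median 0.23). Rnf145, a ubiquitin ligase that acts on sterol control proteins, was at 60.3, 99.8 and 73.9 CPM against 44.3, 41.2 and 44.3 CPM, and rose by 0.85 on the log2 scale (edgeR adjusted p = 0.0099). Erlin1 rose by 0.47. In the branches that lead from mevalonate to prenyl groups, ubiquinone and dolichol, 0 of 15 genes passed the test. All 15 had an interval within a 2-fold change.

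In the esterification and lipid droplet list 2 rose and 3 fell of 14 tested (median 0.00), and its sterol acyltransferases moved in opposite directions. Soat1, the main cholesterol esterifying enzyme of macrophages, stood at 633.7, 553.9 and 584.3 CPM against 911.6, 992.5 and 999.7 CPM, and fell by 0.71 ± 0.07 (SE) on the log2 scale (edgeR adjusted p = 0.000114). Soat2, known from intestine and liver, rose by 1.75 ± 0.35 (SE) from a low level, at 9.73, 9.84 and 10.3 CPM against 3.70, 3.51 and 1.68 CPM (edgeR adjusted p = 0.00903). Plin3 and Lpin1 fell, with log2 fold changes of -0.44 and -1.12.

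In the remaining fatty acid synthesis list, 2 rose and 1 fell of 19 tested (median 0.15). Elovl7 fell to 1.30 ± 0.740 from 7.56 ± 3.69 CPM, and Hsd17b12, a reductase of chain elongation, rose by 0.31 on the log2 scale. Mecr, a reductase of mitochondrial fatty acid synthesis, rose by 0.58 (edgeR adjusted p = 0.0235). Of 7 tested NADPH suppliers 1 rose and 2 fell (median -0.19), with log2 fold changes of 0.31 for Idh2, -0.45 for Idh1 and -0.39 for Taldo1. Of 16 fatty acid oxidation genes 0 rose and 1 fell, Acadl, with a log2 fold change of -0.69.

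The LXR target and sterol export list held 4 genes that rose and 1 that fell of 8 tested, with a median of 0.65. The lipid transfer protein gene Pltp stood at 246.8, 195.8 and 228.8 CPM against 15.1, 10.1 and 8.52 CPM, and the sterol exporter gene Abca1 at 74.9, 53.0 and 79.3 CPM against 13.3, 13.5 and 19.8 CPM. Apoe rose by 3.25 on the log2 scale, while Smpdl3a, of the same list, fell by 1.01. Whether Smpdl3a answers to LXR in these cells was not tested. In the same libraries Srebf1, Srebf2 and Insig1 did not pass the test.

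**Figure D5:**
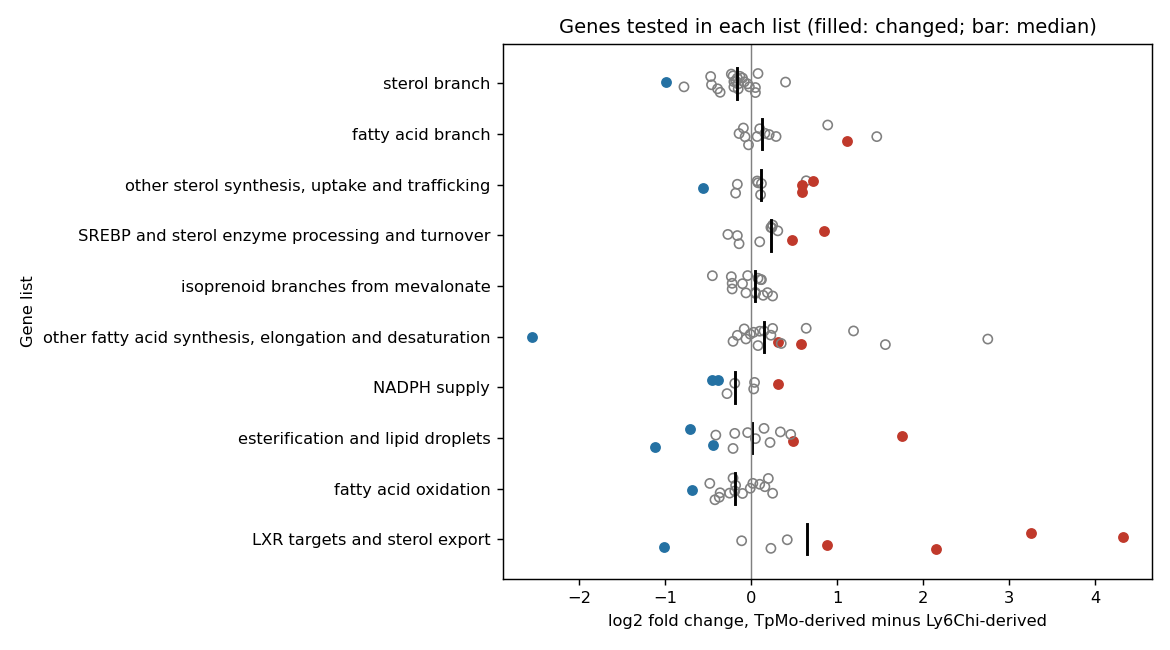
The log2 fold changes (TpMo-derived minus Ly6Chi-derived) of the genes tested in each branch and neighbouring list, with the genes past the threshold set apart by colour. The sterol branch reaches from -0.99 to 0.40 (median -0.16), the fatty acid branch from -0.14 to 1.46 (median 0.13) and the LXR target list from -1.01 to 4.32 (median 0.65).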

How the data were processed

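Bulk RNA was made into SMART-Seq2 libraries and sequenced as read pairs, per the labels' protocols. The authors deposited 1 table of raw counts per gene. Reads were aligned with STAR to GRCm38, per the submitters' processing notes (its version was not stated there), and counted with featureCounts 1.6.3 over GENCODE M22 exons, per the file headers. The command in the header sets no pair, strand, multi-mapping or overlap option, so both mates were counted, strand was ignored, and reads with several places or genes were left out. The exon length in bases is from the same deposited table.

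Symbols came from GENCODE M21 (55394 of 55487 IDs matched). Genes were filtered with edgeR 4.0.16 in R 4.3.3 (minimum count 10, total count 15), scaled by TMM and tested by the robust quasi-likelihood test on all 6 libraries with no covariate, with Benjamini-Hochberg adjustment over 13140 genes. CPM were scaled to the same totals. Standard errors and 95% intervals derive from the F statistic and are approximate. The scripts were tested on simulated data. No pair of replicates agreed within sampling noise. The alternatives were other scalings and filters, DESeq2 1.42.0, limma-voom (limma 3.58.1), a threshold of 0.01 and leaving out each library. All 36 members are named, and up to 4 genes with the smallest p past the threshold per neighbouring list, besides genes a sentence needed. Members and lists were chosen with earlier results of these data known. Replicates were numbered in accession order. Some genes are not reported here.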

Additional observations from a re-analysis of the deposited data

How the results depend on the processing

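The sterol branch held 1 lower gene in the analysis reported, 2 without a count filter, 2 with at least 5 CPM in 3 libraries, 3 with DESeq2, 2 with limma-voom and 0 at an adjusted p under 0.01, and 0 to 3 when 1 library was left out. The fatty acid branch held 1 higher gene, 0 at an adjusted p under 0.01 and 0 to 1 when 1 library was left out. Sterol genes called higher and fatty acid genes called lower stayed at 0 in all alternatives run. Over all genes 1620 were called, 785 at an adjusted p under 0.01, 2383 with DESeq2 and 976 to 1492 with 1 library left out. Leaving out 1 library turned the sign of 15 members, none of which passed the test. Their log2 fold changes ranged from -0.16 to 0.08 for Hmgcs1, -0.66 to 0.12 for Mvk, -0.07 to 0.24 for Pmvk, -0.43 to 0.05 for Fdft1, -0.16 to 0.20 for Sqle, -0.21 to 0.14 for Hsd17b7, -0.16 to 0.01 for Dhcr7, -0.05 to 0.13 for Srebf2, -0.38 to 0.38 for Acaca, -0.29 to 0.11 for Fasn, -0.09 to 0.02 for Elovl5, -0.48 to 0.10 for Elovl6, -0.01 to 0.16 for Fads1, -1.02 to 2.43 for Fads2 (-1.27 with limma-voom) and -0.05 to 0.19 for Srebf1. Beyond the sample left out or the number of genes tested, the cause was not tested. Scaling by library size alone moved the median of all genes from 0.01 to -0.04. With 3 libraries a group, differences could be missed, among them small ones in genes with few counts such as Fdps (358 in all). Counts were also simulated with the gene means and library sizes of these data. Among 12636 genes, 95 were changed by a log2 fold of 1 either way and 95 by 2. That is a smaller share than was called in these data. The fit recovered 43.2% of the log2 fold changes of 1 and 83.2% of those of 2. These rates depend on the share of genes changed and may not carry over. A gene that did not pass the test may thus still differ. No paired analysis was possible because the labels carry no replicate numbers.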
